A study of Homo sapiens with 20 samples.

Results

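The exons described here follow a long intron and precede a short one. Each is a skipped exon event, that is, an exon with its neighbour on either side, whose exon was over 30 and under 300 bases long, whose upstream intron was over 5000 bases and whose downstream intron was under 1000 bases. Its junctions also had to carry 10 or more reads per library on average. The 3 tables of events held 1305 such regions, in 1169 exons of 996 genes, out of 34408 tested regions in 29248 exons of 8783 genes. The choice used intron lengths, exon length and read number, and no inclusion level.

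RNA came from HepG2, a human hepatoma cell line that is grown as a permanent culture. Polyadenylated RNA was selected in the first and second comparisons, while the input RNA of the third went into a total RNA library kit with no such selection described. The first comparison set cells 48 h after an siRNA against FUBP1 (siFUBP1) against cells given the control siRNA siCtrl2, with 3 libraries each. The second set cells 72 h after an antisense oligonucleotide against the small nucleolar RNA U3 (U3 ASO) against cells given one directed at green fluorescent protein (GFP ASO), with 3 libraries each. The third set the input RNA of an immunoprecipitation experiment 48 h after an siRNA against FBL (siFBL input) against its control (siCtrl input), with 2 libraries each, and the immunoprecipitated libraries were not analysed here. No library was shared between comparisons. The study's methods call the libraries of a group biological replicates, and the labels do not say whether they came from separate cultures.

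Introns are removed by the spliceosome, which must pair a 5′ splice site with the 3′ splice site of the same intron or exon. Where an intron is short, the pairing can form across the intron, and where both introns are long it is thought to form across the exon. An exon with a long intron before it and a short one after it therefore has a different arrangement at each end. The 3′ splice site is read through a pyrimidine-rich stretch bound by U2AF and the AG at the intron's end. FUBP1 is a nuclear protein with KH domains that binds RNA upstream of 3′ splice sites. FBL, or fibrillarin, is the methyltransferase of C/D box small nucleolar ribonucleoproteins, which place 2′-O-methyl groups, and U3 is a C/D box RNA needed to process ribosomal RNA.

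The exon of TRIP12 carried the only call whose groups did not overlap, so it is shown first with 60 intron bases before it and 30 after it. TRIP12 encodes a HECT-type ubiquitin ligase. The sequence is chr2:229860376-229860591 of hg38, minus strand, with the exon in capitals.
TRIP12: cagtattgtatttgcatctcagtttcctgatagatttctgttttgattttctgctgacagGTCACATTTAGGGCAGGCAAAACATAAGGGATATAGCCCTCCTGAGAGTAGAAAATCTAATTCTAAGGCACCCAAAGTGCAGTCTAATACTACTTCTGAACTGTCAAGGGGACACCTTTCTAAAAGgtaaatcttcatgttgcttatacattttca
The exon of 126 bases is exon 3 of the 42 exons of the canonical transcript and is coding throughout. Its upstream intron has 19450 bases and its downstream intron 831 bases, and its removal leaves the reading frame intact. T made up 48% of the last 50 bases of the upstream intron.

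The 3′ splice sites of some other members with large differences between groups, and of RPS19 and P4HB as members that were nearly always included, are given to show how much the intron ends vary. Each line holds the last 50 bases of the upstream intron and, in capitals, the first 10 bases of the exon, on the transcript's strand of hg38.
VPS26C (chr21:37233433-37233492, minus): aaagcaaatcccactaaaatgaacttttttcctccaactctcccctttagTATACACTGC
CHD1L (chr1:147284301-147284360, plus): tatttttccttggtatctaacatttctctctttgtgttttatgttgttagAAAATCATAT
ENTPD6 (chr20:25206472-25206531, plus): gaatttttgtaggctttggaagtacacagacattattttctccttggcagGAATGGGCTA
GALNS (chr16:88842820-88842879, minus): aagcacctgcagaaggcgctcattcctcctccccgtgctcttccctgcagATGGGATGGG
SENP1 (chr12:48089284-48089343, minus): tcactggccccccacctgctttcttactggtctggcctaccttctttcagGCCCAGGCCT
RHBG (chr1:156382018-156382077, plus): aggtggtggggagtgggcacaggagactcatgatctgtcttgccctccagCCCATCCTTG
RPS19 (chr19:41868981-41869040, plus): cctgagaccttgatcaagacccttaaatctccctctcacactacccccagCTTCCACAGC
P4HB (chr17:81847338-81847397, minus): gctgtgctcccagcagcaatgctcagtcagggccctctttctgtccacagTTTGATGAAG
The T share of these 50 bases was 58% in CHD1L, 38% in ENTPD6, 34% in SENP1, 30% in VPS26C, 24% in P4HB, and 22% in GALNS, RHBG and RPS19. All of these introns end in AG.

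Over all 1169 member exons, the last 50 bases of the upstream intron held 37.7% T ± 10.9 (SD over exons). The mean was 41.8% ± 9.58 in 4168 exons between long introns (both over 5000 bases), 28.1% ± 10.8 in 4447 exons between short introns (both under 1000 bases) and 36.5% ± 11.7 in 948 exons with the reverse arrangement, a short intron before and a long one after. A run of TTTT on the transcript's strand, overlapping matches counted once per window, was present in this window of 61.6% of member exons, against 57.2% of all tested exons, 72.5% between long and 27.8% between short introns. The G or C content of the 100 intron bases before the exon was 41.1% ± 13.6 in members, 36.4% ± 11.2 between long introns and 54.7% ± 13.3 between short ones. Members thus lay between the classes with long and with short introns on both measures, and the SD over exons was as large as most of these gaps.

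**Figure D1:**
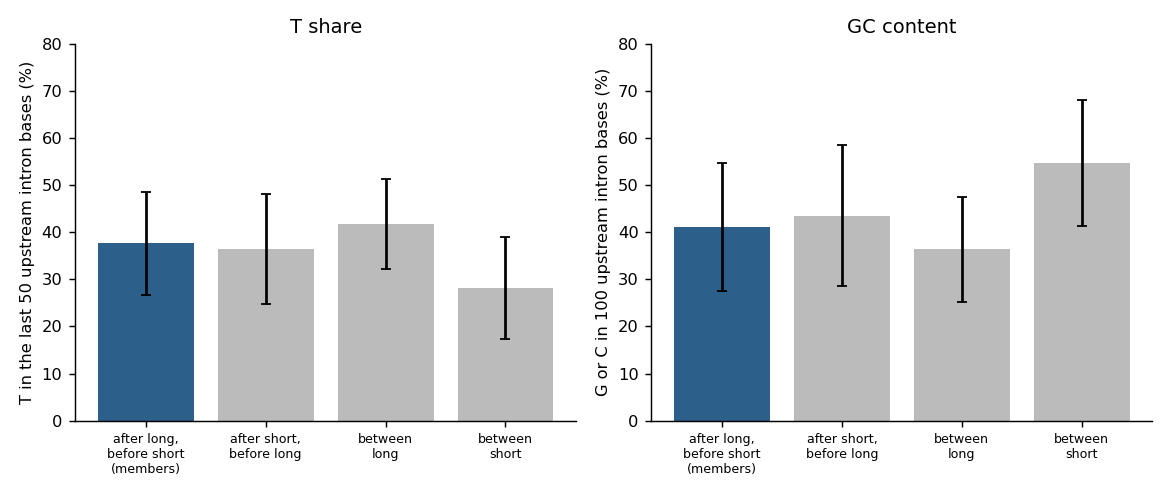
Sequence at the upstream intron of member exons (blue) and of the other intron classes (grey). Bars give the mean over exons and error bars the SD over exons, for the T share of the last 50 intron bases (left) and the G or C content of the last 100 intron bases (right). Members, at 37.7% T and 41.1% G or C, lie between exons flanked by long and by short introns.

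Places in GENCODE were taken from the canonical transcript where it was protein-coding and held the exon, and otherwise from any protein-coding transcript. Other transcripts may place the same exon differently. By this rule 874 of the member exons (74.8%) were coding throughout, against 80.6% of all tested exons. A further 87 lay in the 5′ UTR, 68 held a start codon, 11 a stop codon, 34 occurred only in noncoding transcripts or transcripts marked for nonsense-mediated decay, 45 only in noncoding transcripts, and 50 were not annotated. The canonical transcript contained 933 member exons, and 183 of them (19.6%) were exon 2, against 15.4% of all tested exons and 28.8% of exons between long introns. Whether the long intron of the event was the first intron of that transcript was not checked. Length was a multiple of 3 in 41.6% of member exons and 41.8% of all. The exon began after AG in 99.8% and was followed by GT in 98% of member exons, and a GC 5′ splice site occurred in 1.71%, against 1.19% of all tested exons.

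Each table held its own set of members. The siFUBP1 table had 599 of 16213 tested events, that for U3 ASO had 1151 of 30110, and that for siFBL input had 195 of 5218. Before the requirement on reads these numbers were 769, 1280 and 259. Median reads per library over members were 50 in the siFUBP1 table, 109 in the U3 ASO table and 28 in the siFBL input table. Of the 1305 regions, 811 were members in 1 table, 348 in 2 and 146 in all 3. Upstream introns reached 155210 bases, with a median of 8434 in the siFUBP1 table, and downstream introns had a median of 543 bases there. In 65 of the 556 member exons of that table, the same exon also appeared with other neighbours in an event outside the class.

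The libraries differed in depth between tables. Junction reads per library came to 2693397 to 4474350 in the siFUBP1 table, 11249641 to 13321799 in the U3 ASO table and 910779 to 1142189 in the siFBL input table. FUBP1 had 50.5 ± 5.44 reads per 1000000 in siCtrl2, relative to all junction reads of the table, and 7.52 ± 3.09 in siFUBP1 (SD, n = 3), which is 14.9% of control (exact permutation test, two-sided, p = 0.1, the smallest that 3 against 3 allows). It was also lower in U3 ASO, at 41.5 ± 2.53 against 59.9 ± 3.68 in GFP ASO, and the siFBL input table listed no event of FUBP1. Hepatocyte markers were present, with 10 to 12 of 13 genes having events and 81023 to 182927 reads per 1000000. No event was listed for fibroblast genes, and of 3 endothelial genes PECAM1 alone had events, at up to 0.834 reads per 1000000. Of 4 blood markers LYZ alone had events, at 1220 to 13142 reads per 1000000. In the U3 ASO table hepatocyte markers had 115087 to 117539 reads per 1000000 in GFP ASO and 81023 to 83303 in U3 ASO. In the siFBL input table they had 164482 to 166260 in siCtrl input and 182857 to 182927 in siFBL input, and LYZ had 11397 to 11820 and 13062 to 13142. The part of these shifts in the values below was not tested.

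The inclusion level of an event is the length-scaled share of inclusion reads in a library, from 0 to 1. In control libraries the median level over members was 0.956 in the siFUBP1 table, 0.978 in the U3 ASO table and 0.91 in the siFBL input table. Over all tested events these medians were 0.976, 0.989 and 0.947. The share of members below 0.5 in control was 19.7%, 17.6% and 22.1%, against 14.9%, 13.3% and 19.9% of all tested events. Members were therefore skipped more often than tested exons at large. This was not particular to them, since the share was 16%, 14.9% and 22.7% of exons between long introns. In the siFBL input table that was above the share of members. The class with the reverse arrangement had the lowest levels, with 28.3%, 25.4% and 39% below 0.5.

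The members with the most reads were close to full inclusion. RPS19, a protein of the small ribosomal subunit, had its exon 4 (184 bases, chr19:41869031-41869214) at a mean of 6816 reads per library in the siFUBP1 table and 13298 in the U3 ASO table, with 6 and 2 skipping reads in all. P4HB, a protein disulfide isomerase of the endoplasmic reticulum, lay at 0.998 to 1 in every library of the 3 tables. RPN2, a subunit of the oligosaccharyltransferase, lay at 0.997 to 1 in the siFUBP1 table, and APLP2, an amyloid precursor-like protein, at 0.998 to 1 in the U3 ASO table. In the siFBL input table BSG, the membrane protein basigin, lay at 0.997 to 1 and TRIM8, a ubiquitin ligase, at 0.974 to 1.

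After FUBP1 depletion exon 3 of TRIP12 fell. Its level was 0.488, 0.612 and 0.552 in siCtrl2 and 0.251, 0.259 and 0.268 in siFUBP1. The mean was 197 reads per library, and every siFUBP1 library lay below every siCtrl2 library. The mean went from 0.551 ± 0.0618 to 0.259 ± 0.00878 (SD, n = 3), a difference of -0.291 (adjusted p = 0.0144, quasi-binomial test with the dispersion moderated by limma). Without library 2 of siCtrl2 the difference was -0.261 and the adjusted p 0.344. The call was also lost in limma without read weights, a form chosen after seeing the data (adjusted p = 0.822), while read-weighted limma gave 0.0425 and, with a variance trend, 0.0505. Of 599 members this was the only one called at adjusted p under 0.1, where 0.197% of all tested events (32 of 16213) were called.

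In the U3 ASO table the same exon lay at 0.388, 0.574 and 0.488 in GFP ASO and at 0.664, 0.584 and 0.596 in U3 ASO, with a mean of 562 reads per library. The U3 ASO libraries were all higher, by 0.131 on the mean, and the difference did not pass the test (adjusted p = 0.772). In the siFBL input table it lay at 0.248 and 0.476 in siCtrl input and at 0.513 and 0.345 in siFBL input, and the groups overlapped.

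**Figure D2:**
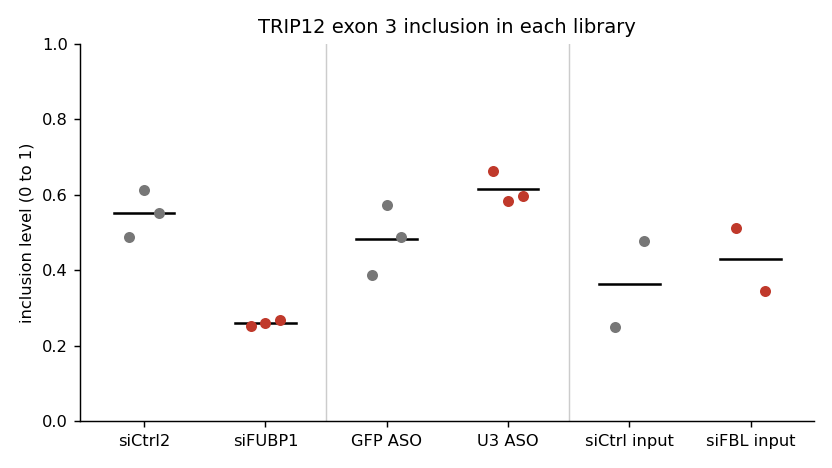
Inclusion level of TRIP12 exon 3 in each library of the 6 groups. Points are libraries, bars are group means, and grey and red mark control and depletion. The siFUBP1 libraries at 0.251 to 0.268 lie below the siCtrl2 libraries at 0.488 to 0.612, while the U3 ASO libraries lie above their GFP ASO controls.

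Among the 599 members of the siFUBP1 table, 19 lay lower in every siFUBP1 library than in every siCtrl2 library (3.17%, against 3.1% of all tested events), TRIP12 included. Another 13 lay higher in every siFUBP1 library (2.17%, against 1.96%). Both shares were close to those of all tested events. Those with the smallest p among them, TRIP12 aside, are described next, and none of these passed the test.

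VPS26C is a subunit of the retriever complex, which recycles membrane proteins from endosomes. Its exon 4 (81 bases, chr21:37233362-37233442) lay at 0.943, 0.978 and 0.879 in siCtrl2 and at 0.471, 0.618 and 0.686 in siFUBP1 (adjusted p = 0.39). In the U3 ASO table it was instead slightly higher, at 0.897 ± 0.0252 in GFP ASO and 0.954 ± 0.0294 in U3 ASO. CHD1L is a chromatin remodelling enzyme recruited by poly(ADP-ribose). Its exon 15 (149 bases, chr1:147284351-147284499) lay at 0.913, 0.889 and 0.976 in siCtrl2 and at 0.839, 0.628 and 0.711 in siFUBP1 (adjusted p = 0.435). TRAPPC10, a subunit of a complex that tethers vesicles at the Golgi, had exon 8 at 1 in each siCtrl2 library and at 0.54, 0.941 and 0.757 in siFUBP1. These 3 coding exons had lower levels after depletion in every library.

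Higher levels were seen at AFMID, PLD3 and PTPN23. AFMID is an arylformamidase of tryptophan breakdown, and its exon 10 lay at 0.563, 0.625 and 0.522 in siCtrl2 and at 0.965, 1 and 0.708 in siFUBP1 (adjusted p = 0.584). PTPN23, which takes part in endosomal sorting, had exon 3 at 0.866, 0.316 and 0.312 in siCtrl2 and at 1, 0.875 and 0.936 in siFUBP1. Control levels differed between tables. In GFP ASO, AFMID lay at 0.89, 0.969 and 0.928 and PTPN23 at 0.942, 0.938 and 0.817. PTPN23 lay at 0.642 and 1 in siCtrl input. PLD3 is a lysosomal nuclease, and its exon 2 (213 bases, chr19:40365718-40365930) lies in the 5′ UTR. It lay at 0.302, 0.182 and 0.31 in siCtrl2 and at 0.875, 1 and 0.818 in siFUBP1 (adjusted p = 0.515), on a mean of 23.8 reads per library.

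Some members were almost absent from siCtrl2 RNA, or, for ZNF783, from RNA after FUBP1 depletion. SUPT6H, a histone chaperone of transcription elongation, had a 5′ UTR exon outside its canonical transcript with 0 of 319 reads in siCtrl2, which allows a share of up to 0.94% of reads for counting error alone. In siFUBP1 22 of 307 reads included it, at levels of 0.057, 0.02 and 0.061. SCML1, a relative of Polycomb proteins, had 0 of 196 inclusion reads in siCtrl2 (up to 1.53%) and 8 of 56 in siFUBP1. Both exons were present in the GFP ASO controls, SUPT6H at 0.034, 0.031 and 0.05 and SCML1 at 0, 0.107 and 0.042. ZNF783, a zinc finger gene, had an unannotated exon at 0.532, 0.872 and 1 in siCtrl2 and at 0.075, 0 and 0 in siFUBP1, with 2 to 26 reads per library. Their adjusted p was 0.812.

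**Figure D3:**
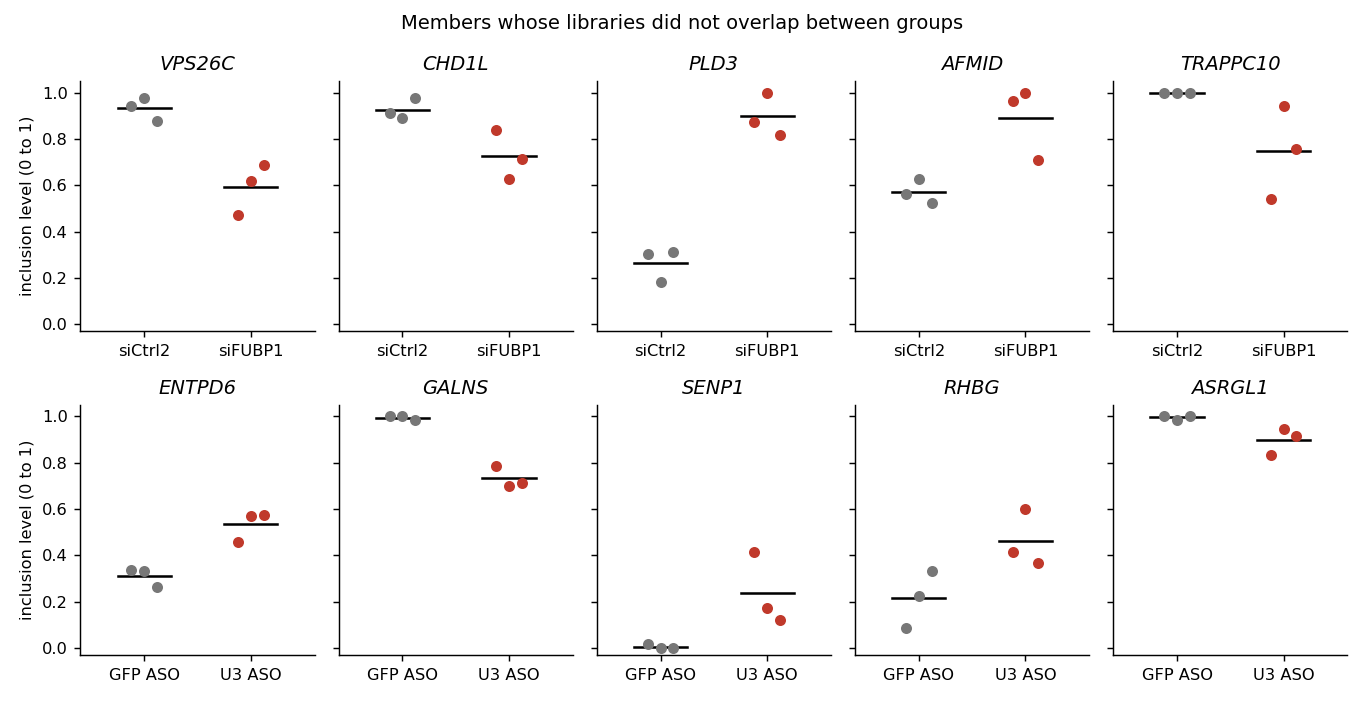
Inclusion level per library for 5 members of the siFUBP1 table (top) and 5 of the U3 ASO table (bottom) whose groups did not overlap. Points are libraries and bars are group means, and none of these passed the test at adjusted p under 0.1. GALNS is tight within groups, at 0.982 to 1 in GFP ASO and 0.697 to 0.787 in U3 ASO, while SENP1 and TRAPPC10 spread widely after depletion.

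Over all 599 members of the siFUBP1 table, 292 were lower and 307 higher after depletion. The share lower was 48.7%, against 51.9% of all tested events. The median change was 0.00108, against -0.00139 over all tested events. A fall or gain of at least 0.1 was seen in 76 and 59 members, against 1763 and 1450 of all tested events. Changes of that size in either direction made up 22.5% of members, 19.8% of all tested events and 23.7% of events between long introns. The mean level over the 581 members with reads in every library was 0.787, 0.786 and 0.779 in siCtrl2 and 0.772, 0.786 and 0.778 in siFUBP1, so the groups overlapped. The difference of the member means was -0.00472. Over all tested events the mean was 0.828 ± 0.000876 in siCtrl2 and 0.822 ± 0.00135 in siFUBP1. That difference was -0.00533, without overlap and with a smaller spread between libraries.

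Exons flanked on both sides by introns of like length are given for the same libraries. Between long introns the mean level was 0.819 ± 0.00373 in siCtrl2 and 0.798 ± 0.0061 in siFUBP1, with 60.3% of 2457 events lower. Between short introns it was 0.841 ± 0.0031 and 0.86 ± 0.0015, with 39.1% of 2148 events lower. In neither class did the groups overlap. Exons after a short and before a long intron lay at 0.706 ± 0.0023 and 0.703 ± 0.0043, with 52% of 492 lower, and overlapped as the members did. The gap between the mean of members and that of exons between short introns was -0.0569 ± 0.0071 in siCtrl2 and -0.0809 ± 0.0076 in siFUBP1, without overlap. The gap to exons between long introns was -0.0356 ± 0.0078 and -0.0194 ± 0.0125, with overlap. These gaps were described and not tested.

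**Figure D4:**
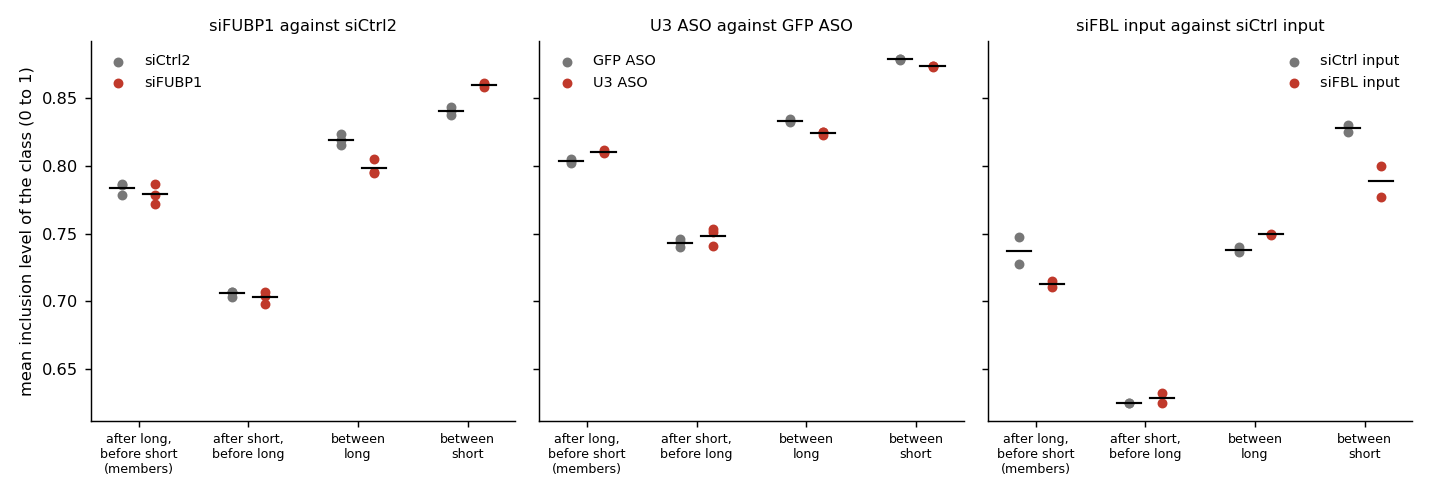
Mean inclusion level of 4 intron classes in each library of the 3 comparisons. Points are libraries and bars are group means, the vertical axis does not start at 0, and grey and red mark control and depletion. In the siFUBP1 comparison members overlap between groups, while exons between long introns lie lower and exons between short introns lie higher after depletion.

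The members of the siFUBP1 table were also divided by the length of the upstream intron, and the differences between these sets were not tested. The share lower was 45.9% of 351 members with upstream introns up to 10000 bases, 50% of 168 with longer ones up to 20000 bases and 58.8% of 80 with over 20000 bases. Mean levels overlapped between groups in each set, and in the last they were 0.737 ± 0.00617 in siCtrl2 and 0.723 ± 0.0134 in siFUBP1. The shares lower ran the other way in the siFBL input table, at 58.8% of 131, 50% of 42 and 27.3% of 22 members. Mean levels there overlapped up to 10000 bases, were lower from 10000 to 20000 and higher over 20000, both without overlap. In the U3 ASO table the shares were 52.1%, 50.6% and 55.6%. All tested exons were not divided by intron length. The siFUBP1 members were divided in the same way by the T share of the intron end. Of 308 members at or over the median of 40% T, 53.6% were lower, and their mean levels did not overlap, at 0.776 ± 0.00204 in siCtrl2 and 0.766 ± 0.00622 in siFUBP1. Of 291 members under it, 43.6% were lower, at 0.792 ± 0.0079 and 0.793 ± 0.0165. Over all tested exons of the same lengths this split gave 58.9% and 45.2%. In the siFBL input table, split at its own median of 36% T, 49.5% and 58.1% of members were lower. All tested exons of the same lengths gave 47.3% and 56.8% there. In the U3 ASO table, split at 38% T, the shares were 55.3% and 47.8% of members and 60.6% and 57.9% of all.

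After U3 depletion 1 of 1151 members was called, against 0.226% of all tested events (68 of 30110). It was exon 2 of NTAN1, an amidase of the N-degron pathway (103 bases, chr16:15047997-15048099), and it rested on 1 control library. GFP ASO had 5, 0 and 3 inclusion reads and 0, 28 and 0 skipping reads, while U3 ASO had 0, 178 and 244 inclusion reads and no skipping read. The level was 1, 0 and 1 in GFP ASO and 1 in U3 ASO libraries 2 and 3, and the fit drops library 1, which had no read. The groups overlapped. The adjusted p was 0.000859, and without GFP ASO library 2 it was 1.

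Of the 1151 members, 39 lay lower in every U3 ASO library (3.39%, against 3.72% of all tested events) and 38 lay higher (3.3%, against 2.31%). ENTPD6, a nucleoside diphosphatase of the secretory pathway, had the smallest p among them. Its exon 2 (69 bases, chr20:25206522-25206590), which holds the start codon, lay at 0.336, 0.334 and 0.261 in GFP ASO and at 0.459, 0.569 and 0.574 in U3 ASO (adjusted p = 0.441). SENP1, a protease that removes SUMO, had an exon found only in noncoding transcripts or ones marked for nonsense-mediated decay. It lay at 0.016, 0 and 0 in GFP ASO and at 0.413, 0.172 and 0.122 in U3 ASO (adjusted p = 0.487). RHBG, an ammonium transporter, had exon 7 at 0.085, 0.226 and 0.333 in GFP ASO and at 0.414, 0.599 and 0.368 in U3 ASO. An unannotated exon of ZNF189, a zinc finger gene, lay at 0, 0.012 and 0 in GFP ASO and at 0.066, 0.086 and 0.034 in U3 ASO. These 4 exons were minor or partly used forms in GFP ASO cells and were higher in each U3 ASO library.

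Some coding exons near full inclusion in GFP ASO were lower. GALNS is a lysosomal sulfatase, and its exon 2 (124 bases, chr16:88842706-88842829) lay at 1, 1 and 0.982 in GFP ASO and at 0.787, 0.697 and 0.713 in U3 ASO (adjusted p = 0.552). ASRGL1, an asparaginase, had exon 3 at 1, 0.986 and 1 in GFP ASO and at 0.834, 0.945 and 0.915 in U3 ASO. In siCtrl2, GALNS lay at 1, 0.698 and 1 and ASRGL1 at 0.885, 0.886 and 0.906. ASRGL1 lay at 0.987 and 0.921 in siCtrl input. RAB1A, a GTPase of transport from the endoplasmic reticulum to the Golgi, had exon 5 at 0.998 to 1 in GFP ASO and at 0.967 to 0.986 in U3 ASO, on 1356 reads per library. POM121, a protein of the nuclear pore, went the other way, with exon 6 at 0.957 to 0.971 in GFP ASO and 0.994 to 1 in U3 ASO. Its reads may be shared with the near-identical gene POM121C, so this value is uncertain.

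The mean over members lay on the other side of control than the mean over all tested events, a contrast that was not tested. The mean level of members was 0.802, 0.805 and 0.803 in GFP ASO and 0.812, 0.811 and 0.81 in U3 ASO, higher without overlap by 0.00708. Over all tested events the GFP ASO libraries had a mean of 0.849 ± 0.000613 and the U3 ASO libraries 0.846 ± 0.000901, lower without overlap. Exons between long introns (0.833 ± 0.0012 and 0.825 ± 0.0012) and between short introns (0.879 ± 0.0006 and 0.873 ± 0.0003) were lower too. Exons after a short and before a long intron were higher like the members, at 0.744 ± 0.00298 and 0.749 ± 0.00649 with overlap, and 52.5% of 988 were lower. Among these, 121 had gains and 90 had falls of at least 0.1. The count of directions gave another picture, since 599 of the 1151 members were lower and 552 higher. The share lower was 52%, against 59.2% of all tested events, and the median change was -0.000836, against -0.00355. Gains of at least 0.1 were seen in 110 members and falls of that size in 68, against 2103 and 2180 of all tested events.

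The higher means were at members with a mean level below 0.9. A level near 1 has little room to rise and a level near 0 little room to fall. Members with a mean level from 0.5 to 0.9 over all libraries lay at 0.73 ± 0.00865 in GFP ASO and 0.775 ± 0.0104 in U3 ASO (153 members), and those below 0.5 lay at 0.123 ± 0.0123 and 0.145 ± 0.0086 (199 members). Neither set overlapped between groups. The 493 members at 0.98 and over went the other way, at 0.994 to 0.997 in GFP ASO and 0.991 to 0.992 in U3 ASO, with 62.7% lower. All tested exons of the same lengths went the same way as members in the lowest and highest bands. Below 0.5 they lay at 0.134 ± 0.000707 and 0.148 ± 0.000713 without overlap, with 39.6% lower against 36.2% of members, and at 0.98 and over 67.3% were lower. In the band from 0.5 to 0.9 they lay at 0.775 ± 0.00421 and 0.775 ± 0.00476 and overlapped. From 0.9 to 0.98 the 306 members lay at 0.954 ± 0.00446 and 0.95 ± 0.00457 and overlapped. All tested exons of the same lengths lay at 0.96 ± 0.00105 and 0.948 ± 0.000442 in that band, lower without overlap.

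The members of the U3 ASO table were also divided by the place of the exon in its transcripts, and the differences between these sets were not tested. Members at exon 2 of the canonical transcript had a median control level of 0.987. Their means were 0.905 ± 0.0105 in GFP ASO and 0.917 ± 0.00527 in U3 ASO, higher with overlap, with 97 of 186 lower. Those at exon 3 or later lay at 0.925 ± 0.00563 and 0.925 ± 0.00124 and overlapped. Of these 706 members 400 were lower (56.7%, against 62.7% of all tested exons of these lengths at that place). Member exons absent from the canonical transcript lay at 0.384, 0.38 and 0.376 in GFP ASO and at 0.401, 0.41 and 0.403 in U3 ASO, with 157 of 259 higher. Members at a start codon or in the 5′ UTR lay at 0.617, 0.63 and 0.599 in GFP ASO and at 0.637, 0.652 and 0.635 in U3 ASO, with 113 of 188 higher. Members without a protein-coding transcript had 54 of 83 higher. Coding members lay at 0.905 ± 0.002 and 0.904 ± 0.0028 and overlapped, with 465 of 817 lower. All tested exons of these lengths gave 45.6% lower outside the canonical transcript and 62.3% lower among coding exons, against 39.4% and 56.9% of members. At a start codon or in the 5′ UTR 51% of all were lower, against 39.9% of members. Without a protein-coding transcript these shares were 41.7% and 34.9%, and at exon 2 they were 59.5% and 52.2%. In bulk RNA a change in splicing and a change in how long each form persists cannot be told apart.

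**Figure D5:**
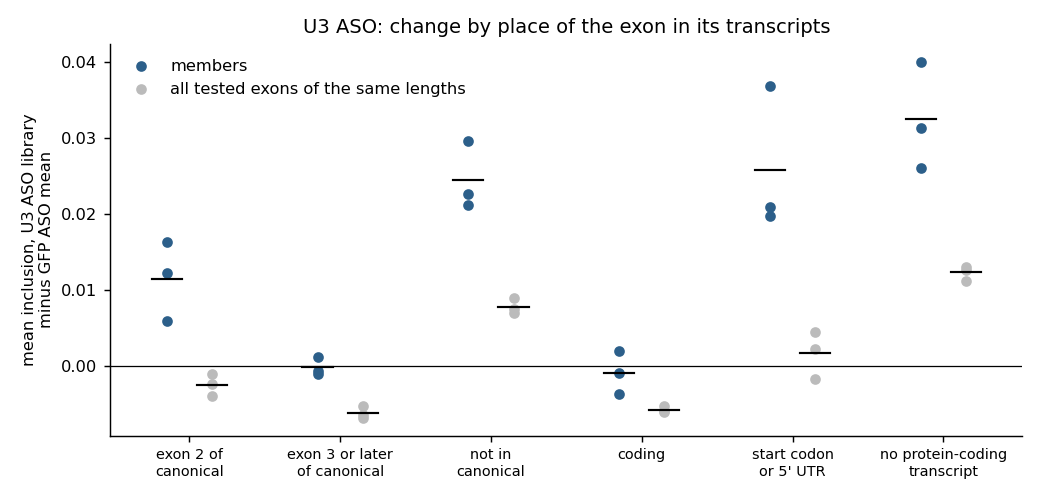
Mean inclusion of U3 ASO libraries minus the GFP ASO mean, by place of the exon in its transcripts, for members (blue) and all tested exons of the same lengths (grey). Points are the 3 U3 ASO libraries and bars their mean, on the scale of inclusion level, and members are contained in the grey set. Members outside the canonical transcript lie above 0 in all 3 libraries, and coding members lie around 0.

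No member was called after FBL depletion, and no tested event was either (0% of 5218), with 5 of 195 members and 118 of all tested events at an unadjusted p under 0.05. Read-weighted limma called 2 members without a variance trend, FAM126A and ANKRD11. With the trend limma called 1 member, which was neither of these events (adjusted p = 0.21 for FAM126A and 0.187 for ANKRD11). Without read weights it called 0. The shares of all tested events called by these forms are not given here, so these calls cannot be read as a result about members. With 2 libraries a group, 15 members lay lower in both siFBL input libraries (7.69%, against 7.63% of all tested events) and 13 lay higher (6.67%, against 6.19%). The depth was the lowest of the 3 tables, with a median of 28 reads per library over members.

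The smallest p belonged to PLD3. Its 5′ UTR exon lay at 1 and 0.949 in siCtrl input and at 0 and 0.2 in siFBL input, on 27, 38, 12 and 9 reads (adjusted p = 0.874). This is the reverse of its direction in the siFUBP1 table. The control levels of the tables also stood apart, at 0.265 ± 0.0718 in siCtrl2, 0.645 ± 0.0608 in GFP ASO and 0.974 ± 0.0363 in siCtrl input. FAM126A, which takes part in making phosphatidylinositol 4-phosphate at the plasma membrane, had an exon with a stop codon at 0.556 and 0.63 in siCtrl input and at 0 and 0.081 in siFBL input. ANKRD11, a chromatin regulator, had an exon outside protein-coding transcripts at 0.007 and 0.049 in siCtrl input and 0.195 and 0.227 in siFBL input. In the U3 ASO table that exon was also higher, at 0.278, 0.26 and 0.279 in GFP ASO and 0.448, 0.504 and 0.335 in U3 ASO.

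The remaining members named by the size of p in the siFBL input table had adjusted p = 0.874. STK25, a kinase at the Golgi, lay at 1 and 1 in siCtrl input and 0.536 and 0.771 in siFBL input. EIF4B, a translation initiation factor, lay at 1 and 1 and then at 0.957 and 0.947, and RAB17, a GTPase of epithelial membrane traffic, at 0.935 and 1 and then at 0.804 and 0.768. CALU, a calcium-binding protein of the secretory pathway, lay at 0.632 and 0.717 and then at 0.602 and 0.498. DCAF16, a substrate receptor of a ubiquitin ligase, had a 5′ UTR exon at 1 and 0.893 and then at 0.417 and 0.527. Higher levels were seen at DGUOK, the mitochondrial deoxyguanosine kinase (0.101 and 0.086, then 0.458 and 0.709), and at HM13, the signal peptide peptidase (0 and 0.143, then 1 and 0.432). DGUOK and HM13 had 4 to 58 reads per library.

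The mean level over members was 0.727 and 0.748 in siCtrl input and 0.715 and 0.711 in siFBL input, lower without overlap by 0.0245. Over all tested events the mean was also lower without overlap, at 0.772 ± 0.00282 in siCtrl input and 0.763 ± 0.00599 in siFBL input. The share of members lower was 53.3%, against 52.1% of all tested events, and the median change was -0.00946, against -0.00326. Exons between short introns were also lower (0.828 ± 0.0034 and 0.789 ± 0.0166) and exons between long introns were higher (0.738 ± 0.0023 and 0.75 ± 0.0006). The gap between members and exons between long introns was -0.0125 and 0.011 in the control libraries at its lowest and highest, and -0.0393 and -0.0339 after FBL depletion. The gap to exons between short introns moved the other way with overlap, from -0.0902 ± 0.0177 to -0.0757 ± 0.0133. Exons after a short and before a long intron lay at 0.625 in both siCtrl input libraries and at 0.633 and 0.625 in siFBL input, with 44.5% of 164 lower, and the gap of members to them went from 0.112 ± 0.0143 to 0.0842 ± 0.00236 without overlap.

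The same members were compared across tables by control level and by direction. For the 462 members in both the siFUBP1 and U3 ASO tables, control levels had a Pearson correlation of 0.955 across events, which share genes and read depth, and 236 had the same sign of change (51.1%, against 51% of all shared events). The correlation of control levels was 0.843 for the 154 members in the siFUBP1 and siFBL input tables and 0.863 for the 170 in the U3 ASO and siFBL input tables, against 0.902 and 0.913 over all shared events. The share with the same sign was 45.5% and 49.4% of these members, against 48.1% and 51.3%. Of the 146 members in all 3 tables, 20 were lower in each, 19 were higher in each and 107 were mixed.

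The 5 members with 1 sign in all 3 tables and the largest smallest change were METTL22, TBL1X, TMEM63B, FAM126A and DROSHA. None passed the test in any table. TBL1X, a subunit of a nuclear corepressor complex, was the most regular, with its start codon exon at 0.573 to 0.6 in GFP ASO and 0.745 to 0.879 in U3 ASO, 0.662 and 0.32 in siCtrl input and 1 in both siFBL input libraries, and overlapping groups in the siFUBP1 table (0.336 to 0.896, then 0.66 to 1). TMEM63B, a mechanosensitive channel, was higher in all 3, at 0.882 to 0.927 in GFP ASO and 0.94 to 0.987 in U3 ASO, with overlap elsewhere. DROSHA, the nuclease that cuts primary microRNAs, was higher in all 3, from 0.808 to 0.864 in GFP ASO to 0.808 to 0.966 in U3 ASO. METTL22, a protein methyltransferase, and FAM126A were lower in all 3. Leaving out single libraries turned the sign of METTL22, TMEM63B and FAM126A in at least 1 table.

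The members were also read by gene lists written from general knowledge, and no member of any list was called in any comparison. Among splicing factors and RNA-binding proteins 8 of 9 events were lower after FUBP1 depletion, 8 of 13 after U3 and 3 of 4 after FBL. PCBP4, a poly(C)-binding protein, was the exception in the first, with a 5′ UTR exon at 0.087, 0 and 0.01 in siCtrl2 and at 0.108, 0.097 and 0.133 in siFUBP1. TRA2B, a splicing activator, lay at 0.963, 1 and 1 and then at 0.902, 1 and 0.989. For nonsense-mediated decay and mRNA turnover, 5 of 7, 7 of 11 and 0 of 2 events were lower. UPF3A, a decay factor, had exon 6 at 1 in each GFP ASO library and at 0.902, 0.958 and 0.995 in U3 ASO. An XRN1 exon outside the canonical transcript had 0 of 33 inclusion reads in GFP ASO (up to 9.09%) and 32 of 75 in U3 ASO, in the gene of the cytoplasmic 5′ to 3′ exonuclease.

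For chromatin and transcription, 5 of 11, 12 of 22 and 4 of 6 events were lower, as for SMARCC1, a subunit of SWI/SNF remodellers, at 1 in each GFP ASO library and 0.993, 0.95 and 0.997 in U3 ASO. Membrane traffic had 3 of 8 and 7 of 17 lower and no siFBL input event, and it included RAB1A. Mitochondrial and respiratory genes had 2 of 2, 9 of 14 and 1 of 1 lower, with NDUFB5, a subunit of complex I, at 1 in each GFP ASO library and 0.945, 0.935 and 0.986 in U3 ASO. Ribosome biogenesis and nucleolus had 1 of 2 and 5 of 6 lower and no siFBL input event, with BMS1, a GTPase of the small subunit processome, at 1 in each GFP ASO library and 0.973, 1 and 0.989 in U3 ASO. Liver secreted and metabolic proteins had 4 of 6, 7 of 8 and 2 of 3 lower, with complement C5 at 1 in each GFP ASO library and 0.942, 0.989 and 1 in U3 ASO. Actin cytoskeleton and cell adhesion had 2 of 4, 4 of 9 and 2 of 3 lower, with the focal adhesion protein PXN at 0.192, 0.06 and 0.086 in GFP ASO and 0.169, 0.043 and 0.354 in U3 ASO. Over all tested events 51.9%, 59.2% and 52.1% were lower, so most lists were too small to be read against it.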

How the data were processed

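Junction reads of HepG2 RNA-seq libraries were analysed. The authors trimmed adapters with Cutadapt, aligned reads to hg38 with HISAT2 and counted skipped exon events with rMATS from junction reads, with versions and annotation not given in the sources used here. The deposited tables list whole inclusion and skipping read counts per library with no replicate number, so a library is named by its place in the list. Their p-value, FDR and inclusion level columns (6 per-library level columns) hold the authors' own results and were not used, nor was the table of RIP fold changes.

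Inclusion levels were scaled by the effective lengths. Events with a mean of at least 10 reads per library were fitted with a quasi-binomial test, two-sided, whose dispersion came from limma 3.58.1 (squeezeVar) in R 4.3.3. Its prior had infinite degrees of freedom, so an event's own spread did not enter its p. P-values were adjusted over all tested events of a table (Benjamini-Hochberg) and called under 0.1. The test was tested on simulated data in which all events shared a common dispersion. Such data cannot show how the test treats an event whose own spread is larger. Exons were annotated with GENCODE release 44, and sequences were read from hg38, where 99.8% of tested exons follow AG, and some intron ends are not reported here. Counting intervals cover counting error only. Members, gene lists (splicing factors and RNA-binding proteins, actin cytoskeleton and cell adhesion, liver secreted and metabolic proteins, membrane traffic, chromatin and transcription, ribosome biogenesis and nucleolus, nonsense-mediated decay and mRNA turnover, mitochondrial and respiratory genes) and tests were chosen with earlier results of these data known. Named were called members, then those with the smallest p and no overlap up to 10 per comparison, the 3 with the most reads per table, 5 with 1 sign in all tables, and list members with the smallest p.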

Additional observations from a re-analysis of the deposited data

How the results depend on the processing

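No paired analysis was possible because the positions in the lists of reads carry no replicate number. The call of TRIP12 held under read-weighted limma without and with a variance trend, and was lost without read weights, a form chosen after seeing the data, which called 0 members in each comparison. In the U3 ASO table both read-weighted forms called 0 members, as NTAN1 was lost. They called 2 and 1 in the siFBL input table, where FAM126A and ANKRD11, called without the trend, were not called with it. Shares of all tested events called by these forms are not given here. With upstream introns over 10000 bases, 0 U3 ASO members were called, the share lower was 52.8% for siFUBP1 and 42.2% for siFBL input, the median change was -0.00374 for siFUBP1 and 0.013 for siFBL input, and the mean difference was -0.0122 for siFUBP1 and 0.00506 for U3 ASO. With downstream introns under 500 bases, 0 siFUBP1 members were called, since TRIP12 has a longer one, the median change was 0.00267 for siFUBP1 and -0.0192 for siFBL input, and the mean difference was 0.00232 for siFUBP1 and -0.0502 for siFBL input. The U3 ASO mean difference was 0.00575 with at least 20 reads and 0.0056 with 1 event per exon. Leaving out 1 library at a time gave 0 to 1 calls for siFUBP1 and U3 ASO and 0 for siFBL input. The share lower ran from 47.7% to 51.3%, 52% to 53.6% and 50.3% to 52.8% in the 3 comparisons, the median change from -0.00111 to 0.0016, -0.00128 to -0.000529 and -0.0112 to -0.000257, and the mean difference from -0.0072 to -0.00186, 0.00647 to 0.00774 and -0.0306 to -0.0202. The sign turned for METTL22 (0.077 in siFUBP1 without siFUBP1 library 2, from a lowest value of -0.54, and 0.351 and 0.202 in siFBL input without siCtrl input library 2 and siFBL input library 2, from -0.649), for FAM126A (0.0482 and 0.0074 in siFUBP1 without siCtrl2 library 1 and siFUBP1 library 3, from -0.17), for P4HB (0.00038 in U3 ASO without U3 ASO library 3, from -0.00049) and for TMEM63B (-0.00939 in siFBL input without siFBL input library 2, up to 0.111). Apart from the intron limits and lost samples or members, the causes were not tested. The siFBL input table had the fewest reads and 2 libraries a group.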
